A study of Homo sapiens with 18 samples.

Results

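The collagen genes encode the chains of the collagen superfamily, and 39 of them were followed here out of 58051 genes in the expression tables of NCI-H460 cells. They were taken by symbol from a fixed list and grouped by the type of collagen they build, with 11 fibrillar chains, 6 type IV chains, 3 type VI chains and 19 others. NCI-H460 is a long-established cell line grown from a human large-cell carcinoma of the lung. RNA was sequenced from resistant 1 and resistant 2, a pair of NCI-H460 populations with resistance to decitabine and all-trans retinoic acid (ATRA), and from the parental cells. Each population received 2 µM ATRA with decitabine, labelled as 50 µM, or the solvent DMSO (0.7% v/v) alone. The drugs were added 24 h after seeding and the cells were lysed at 72 h, so that exposure lasted 48 h, with 3 biological replicates in each of 6 groups. Decitabine is a cytidine analogue that traps DNA methyltransferases on DNA, and ATRA binds and activates the nuclear retinoic acid receptors. How the resistant populations were derived, and whether each is 1 clone, is not given in the sources used here.

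Collagens are trimers of chains wound into a triple helix. The fibrillar types (I, II, III, V, XI, XXIV and XXVII) assemble into the fibrils of connective tissue, type IV chains form the network of basement membranes, and type VI forms beaded filaments around cells. Type VII makes the anchoring fibrils under epithelia, type VIII a hexagonal network, the FACIT types (fibril-associated collagens with interrupted triple helices) sit on fibril surfaces, and the transmembrane types span the plasma membrane. A trimer of several different chains needs all of their genes in the same cell, so levels of partner chains are given together where a type has them.

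DMSO libraries held between 116.9 and 140.9 M reads. Treated libraries held between 111.4 and 178.7 M reads over genes whose values could be restored. The authors' table of treated libraries had lost its decimal points. These were put back from the whole reads the values must hold, and 32 of the 39 collagen genes were resolved in all 9 treated libraries at a posterior probability of at least 99%. Levels within a treatment are normalized counts, as the authors scaled them per table, and levels across treatments are CPM, reads scaled to a common library size. Errors are SD over n = 3 libraries, and log2 fold changes carry their standard error. Of markers used to check the cell type, the keratins KRT8, KRT18 and KRT19 averaged 31026 normalized counts or more in every DMSO group, the epithelial cadherin CDH1 averaged 1.38 or less, and the leukocyte genes CD3E and MS4A1 averaged 1.09 and 0.289 or less. Other markers differed between the populations. The epithelial adhesion gene EPCAM averaged 3.9 ± 1.89 in resistant 1, 3.88 ± 0.605 in resistant 2 and 93.5 ± 8.84 in parental cells, and the claudin CLDN7 90.3 ± 5.29, 19.01 ± 7.38 and 628 ± 86.04 in that order. Of 6 tested epithelial markers, 1 was higher and 3 lower in resistant 1 than in parental cells, and 4 were lower in resistant 2. Over all genes tested, 29.3% were higher and 26.6% lower in resistant 1, and 32.1% and 29.8% in resistant 2. The 3 muscle markers went in unlike directions. The smooth-muscle actin ACTA2 averaged 4360.2 ± 212 in resistant 1, 4222 ± 433 in resistant 2 and 1694 ± 99.8 in parental cells. MYH11 averaged 19.96 ± 6.43, 12.3 ± 3.49 and 3.92 ± 2.49 in that order, whereas DES was lower in both, at 21.5 ± 6.05, 0.724 ± 1.25 and 54.8 ± 5.14. The 4 immune markers summed to 16.4 to 28.01 in resistant 1 libraries, 15.99 to 34.7 in resistant 2 libraries and 4.92 to 5.75 in parental libraries, mostly CD68 in resistant 1 and PTPRC and CD68 in resistant 2. The part of these markers in the results was not tested. The 7 fibroblast markers summed to 441 to 500 normalized counts in resistant 1 libraries, 3639 to 4963 in resistant 2 libraries and 1908 to 2262 in parental libraries, with THY1 at 1.66 or less on average. For 18 of the 39 genes another gene lies across part of them on the opposite strand (COL4A1 and COL4A2 among them), and the strand setting of the counting is not given in the sources used here.

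With DMSO, the collagen genes together took 0.431 ± 0.00715% of all gene reads in resistant 1, 0.88 ± 0.0252% in resistant 2 and 0.437 ± 0.00539% in parental cells. Resistant 2 thus carried about 2.01 times the parental share, while the resistant 1 share overlapped the parental one. COL5A2, the alpha-2 chain of type V collagen, was the highest collagen in all 3 populations, with 348354, 336996 and 317038 normalized counts in resistant 1, 539220, 496234 and 458544 in resistant 2 and 392199, 353678 and 386689 in parental libraries. Per kilobase of exon, COL5A2 made up 67.4% of the collagen level in resistant 1, 49.7% in resistant 2 and 75% in parental cells. The next genes per kilobase were COL4A6, COL4A5, COL6A1 and COL8A1 in resistant 1, COL8A1, COL12A1, COL4A5 and COL4A6 in resistant 2, and COL4A6, COL8A1, COL4A5 and COL6A1 in parental cells. The additional reads of resistant 2 lay mainly in the hexagonal network group, where COL8A1 took 0.225 ± 0.0256% of all reads against 0.0292 ± 0.00189% in parental cells, and in the FACIT group, where COL12A1 took 0.141 ± 0.0185% against 0.000206 ± 0.00000707%.

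**Figure D1:**
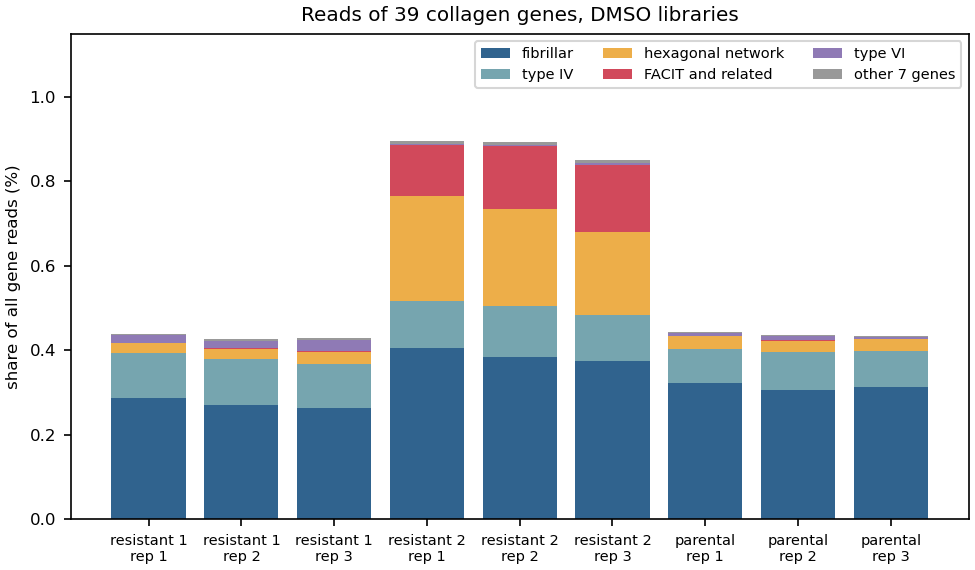
Share of all gene reads (%) taken by the 39 collagen genes in each of the 9 DMSO libraries, stacked by type, with resistant 1 and resistant 2 left of parental. The 3 resistant 2 bars stand at 0.851 to 0.897%, above all other bars, and hold the visible FACIT and hexagonal network blocks.

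Of 36 collagen genes that passed the filter with DMSO (10 or more normalized counts in 3 or more libraries), 30 were called in resistant 1 against parental cells, 12 higher and 18 lower. Over all genes tested, 55.9% were called in that comparison, 29.3% higher and 26.6% lower. In resistant 2 against parental cells, 31 were called, 21 higher and 10 lower, beside 61.9% of all genes (32.1% and 29.8%). A call is an adjusted p under 0.05 (limma, Benjamini-Hochberg over 21643 genes). The median log2 fold change of the collagen genes was -0.37 in resistant 1 and 0.95 in resistant 2, beside 0.01 and 0.02 over all genes. Both comparisons share the parental libraries. COL1A2, COL9A1 and COL10A1 were below the filter, with at most 6.94 normalized counts in any DMSO library, and COL10A1 had no read. In bulk RNA, fewer cells expressing a gene and less RNA per cell cannot be told apart.

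**Figure D2:**
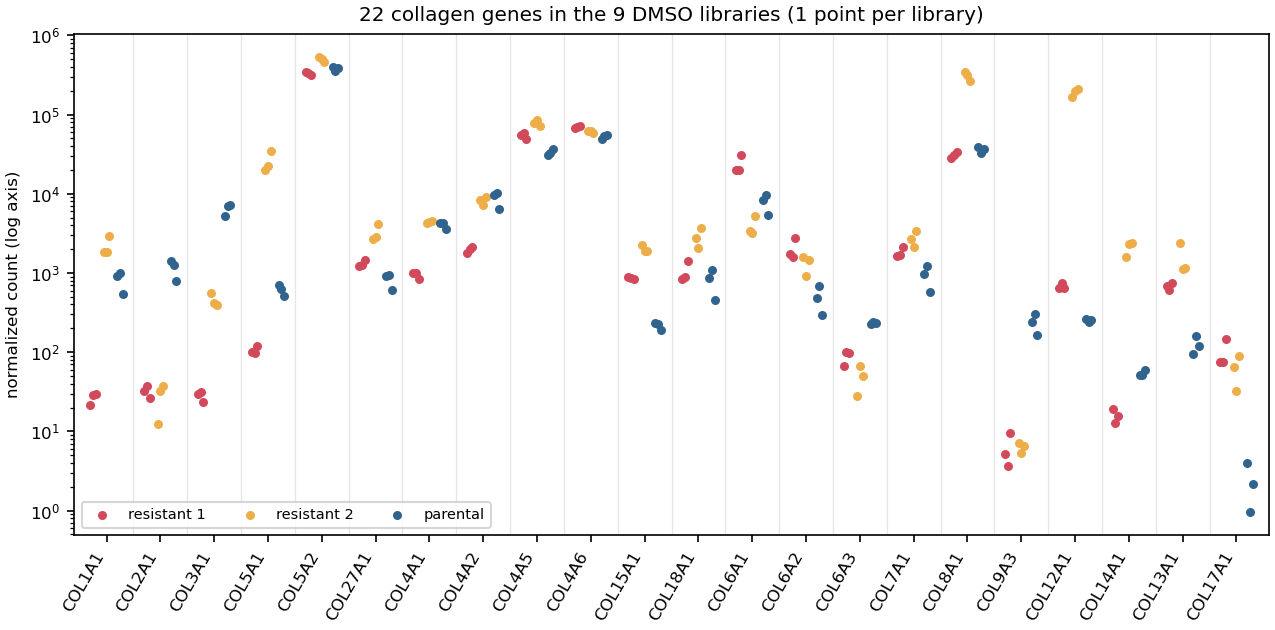
Normalized counts (log axis) of 22 collagen genes in the 9 DMSO libraries, 1 point per library, with resistant 1, resistant 2 and parental from left to right within each gene. COL12A1, COL5A1 and COL14A1 are high in resistant 2, COL3A1 in parental cells, and COL17A1 is at 0.958 to 3.94 in the 3 parental libraries.

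The fibrillar chains were mostly lower in resistant 1 and mostly higher in resistant 2. In resistant 1, 7 of 10 tested fibrillar genes were lower than in parental cells and 2 higher, whereas in resistant 2, 2 were lower and 7 higher. Over all genes tested, 26.6% were lower and 29.3% higher in resistant 1, and 29.8% and 32.1% in resistant 2. COL3A1, the only chain of type III collagen, had 29.5, 31.8 and 23.2 normalized counts in resistant 1 libraries, 555, 420.0 and 394 in resistant 2 libraries and 5248, 7044 and 7132 in parental libraries. The 3 groups did not overlap, and the fall was 229.8-fold in resistant 1 (log2 fold change -7.79 ± 0.19, adjusted p = 2.15e-10) and 14.2-fold in resistant 2 (log2 fold change -3.83 ± 0.19, adjusted p = 2.47e-08). COL2A1, the chain of cartilage type II collagen, was low in both resistant populations, at 32.1, 37.3 and 26.1 in resistant 1 and 12.3, 31.98 and 36.9 in resistant 2, against 1426, 1277 and 791 in parental cells. Its log2 fold change was -5.12 ± 0.38 in resistant 1 and -5.47 ± 0.38 in resistant 2 (adjusted p = 7.8e-07 and 3.09e-07).

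COL5A1, the chain that pairs with COL5A2 in type V collagen, separated the 3 populations widely. It had 101, 96.4 and 119.8 normalized counts in resistant 1, 19938, 22572 and 34914 in resistant 2 and 709, 630.1 and 504 in parental libraries. Resistant 2 was 42.00-fold above parental cells (log2 fold change 5.36 ± 0.20, adjusted p = 3.56e-09) and resistant 1 was 5.82-fold below them (log2 fold change -2.52 ± 0.20, adjusted p = 1.63e-06). Set against COL5A2 per exon length, COL5A1 stood at 0.0352 ± 0.0137 of the COL5A2 level in resistant 2 and 0.00109 ± 0.000189 in parental cells, so the level of COL5A2 exceeded that of its partner. COL1A1, the major chain of type I collagen, had 21.7, 29.1 and 29.9 in resistant 1, 1824, 1813 and 2948 in resistant 2 and 924, 999 and 539 in parental libraries. It was 30.5-fold lower in resistant 1 (log2 fold change -4.84 ± 0.27, adjusted p = 7.33e-08) and 2.68-fold higher in resistant 2 (log2 fold change 1.43 ± 0.27, adjusted p = 0.000692). Its partner COL1A2 had 6 reads in all in resistant 1, 13 in resistant 2 and 6 in parental libraries.

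Among the minor fibrillar chains, COL27A1 was 1.59-fold higher in resistant 1 and 3.96-fold higher in resistant 2, at 1227, 1250.0 and 1449.6 and 2716, 2845 and 4202 normalized counts against 905, 943 and 617 in parental cells. COL11A2 was higher in both as well, with means of 121 ± 46.8 in resistant 1, 159.8 ± 52.1 in resistant 2 and 43.7 ± 13.7 in parental cells. COL24A1 fell to 39.1, 36.4 and 40.6 in resistant 1 and rose to 255, 407 and 479 in resistant 2, against 94.5, 121 and 105 in parental cells (log2 fold changes -1.44 ± 0.24 and 1.78 ± 0.24). COL11A1 showed the same pair of directions at low level, averaging 2.12 ± 0.425 in resistant 1, 31.1 ± 6.89 in resistant 2 and 11.6 ± 2.66 in parental cells. COL5A3 averaged 23.8 to 56.2 over the 3 groups and was lower in resistant 1 (log2 fold change -0.80 ± 0.23, adjusted p = 0.0114), a call lost without resistant 1 DMSO replicate 1 (adjusted p = 0.0556).

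In the basement membrane group, the 3 gene pairs of type IV collagen behaved differently. Their chains assemble as COL4A1 with COL4A2, COL4A3 with COL4A4 and COL4A5, or COL4A5 with COL4A6, and the genes of each pair lie head to head. COL4A1 had 988, 993 and 842 normalized counts in resistant 1, 4273, 4412 and 4517 in resistant 2 and 4281, 4274 and 3568 in parental libraries. COL4A2 had 1767, 2016 and 2102 in resistant 1, 8377, 7274 and 9072 in resistant 2 and 9661, 10108 and 6457 in parental libraries. Both were low in resistant 1 (adjusted p = 3.29e-08 and 1.38e-06 against resistant 2), 4.29-fold and 4.46-fold below parental cells (log2 fold changes -2.10 ± 0.11 and -2.13 ± 0.16, adjusted p = 4.3e-08 and 9.89e-07). In resistant 2 their log2 fold changes were 0.13 ± 0.11 and -0.06 ± 0.16 and did not pass the test. The fall of the pair left their ratio per exon length within its spread, at 0.634 ± 0.104 in resistant 1, 0.704 ± 0.0779 in resistant 2 and 0.619 ± 0.0913 in parental cells.

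COL4A1 and COL4A2 start 126 bases apart in RefSeq (GRCh38.p14) on opposite strands of chromosome 13, and the stretch between the starts is printed because this pair moved together. It is given 5′ to 3′ on the plus strand, which is the strand of COL4A2, with each CG dinucleotide in capitals.
COL4A1/COL4A2, chr13:110307158-110307283: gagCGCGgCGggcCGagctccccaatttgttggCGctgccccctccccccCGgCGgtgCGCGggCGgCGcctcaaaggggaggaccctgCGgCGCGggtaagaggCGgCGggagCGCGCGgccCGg
It holds 20 CG dinucleotides, 1 match to GGGCGG and 1 match to CCAAT on either strand, where GGGCGG itself contains a CG.

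COL4A5 and COL4A6 were the most abundant type IV genes. COL4A5 had 55844, 58180.2 and 49407 normalized counts in resistant 1, 77452, 85059 and 71787 in resistant 2 and 30949, 32901 and 36262 in parental libraries, so all 6 resistant libraries lay above the 3 parental ones (log2 fold change 0.71 ± 0.10, adjusted p = 0.000101 in resistant 1; log2 fold change 1.23 ± 0.10, adjusted p = 9.91e-07 in resistant 2). COL4A6 had 68251, 68899 and 70621 in resistant 1, 61261, 61397 and 57869.7 in resistant 2 and 48442, 53001 and 55078 in parental libraries, a log2 fold change of 0.41 ± 0.08 in resistant 1 (adjusted p = 0.000784). In resistant 2 it was 0.21 ± 0.08 (adjusted p = 0.0331), a call lost in 6 alternatives, among them the 2 groups alone (adjusted p = 0.0782). Per exon length the ratio of COL4A5 to COL4A6 was 0.64, 0.661 and 0.547 in resistant 1, 0.989, 1.08 and 0.97 in resistant 2 and 0.4998, 0.486 and 0.515 in parental libraries. The 3 resistant 2 ratios lay above all others.

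COL4A3 and COL4A4 encode chains of the kidney and lung basement membrane network. COL4A3 averaged 1752 ± 317 normalized counts in resistant 1, 896 ± 198 in resistant 2 and 1502 ± 146 in parental cells, and was lower in resistant 2 (log2 fold change -0.76 ± 0.18, adjusted p = 0.00365). COL4A4 averaged 3189 ± 297 in resistant 1, 3685 ± 257 in resistant 2 and 4559 ± 197 in parental cells, with log2 fold changes of -0.52 ± 0.10 and -0.31 ± 0.10. The second of these calls was lost without resistant 2 DMSO replicate 1 (adjusted p = 0.0525) or parental DMSO replicate 1 (0.0677). The multiplexins of the basement membrane zone were higher. COL15A1 had 884, 853 and 849.9 in resistant 1, 2242, 1918 and 1898 in resistant 2 and 233, 224 and 192 in parental libraries, 3.99-fold and 9.33-fold above parental cells with no overlap (log2 fold change 1.99 ± 0.13, adjusted p = 2.16e-07; log2 fold change 3.22 ± 0.13, adjusted p = 4.15e-09). COL18A1, whose C-terminal fragment is endostatin, averaged 1048 ± 320.4 in resistant 1, 2835 ± 835 in resistant 2 and 801 ± 319.7 in parental cells, and only the resistant 2 difference passed (log2 fold change 1.87 ± 0.32, adjusted p = 0.000393).

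Type VI collagen is built from an alpha-1, an alpha-2 and an alpha-3 chain, and the genes of these chains changed in unlike directions. COL6A1 had 19947, 20117 and 31083 normalized counts in resistant 1, 3374, 3167 and 5265 in resistant 2 and 8393, 9587 and 5345 in parental libraries. It was 3.05-fold higher in resistant 1 (log2 fold change 1.62 ± 0.26, adjusted p = 0.000259) and 1.98-fold lower in resistant 2 (log2 fold change -0.98 ± 0.26, adjusted p = 0.00604). COL6A2 was higher in both, at 1741, 1595 and 2729 in resistant 1, 1573, 914 and 1442 in resistant 2 and 483, 675 and 295 in parental libraries (log2 fold changes 2.10 ± 0.31 and 1.47 ± 0.31). Per exon length COL6A1 stood at 11.9 ± 0.695 times COL6A2 in resistant 1, 3.11 ± 0.829 times in resistant 2 and 16.7 ± 2.08 times in parental cells. COL6A3 was lower in both, at 66.8, 100.1 and 98.5 in resistant 1, 27.7, 66.1 and 49.9 in resistant 2 and 225, 239 and 234 in parental libraries (log2 fold changes -1.41 ± 0.30 and -2.34 ± 0.30), and its level per exon length was at most 0.0119 of the COL6A1 level in any DMSO library.

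COL7A1, the chain of the anchoring fibril, was higher in both resistant populations, with 1655, 1674 and 2156 normalized counts in resistant 1, 2665, 2157 and 3370.4 in resistant 2 and 965, 1213 and 579 in parental libraries (log2 fold changes 1.05 ± 0.25 and 1.61 ± 0.25, adjusted p = 0.00431 and 0.000186). COL8A1, a chain of the hexagonal network of type VIII collagen, had 28646, 30376 and 34047 in resistant 1, 345201, 313838 and 264898 in resistant 2 and 38928, 32778 and 36449 in parental libraries. Resistant 2 was 8.54-fold above parental cells (log2 fold change 3.09 ± 0.11, adjusted p = 2.58e-09), while the resistant 1 libraries overlapped the range of parental libraries (log2 fold change -0.22 ± 0.11, adjusted p = 0.127). COL8A2, the other type VIII chain, averaged 7.06 ± 4.001 in resistant 1, 9.47 ± 3.6 in resistant 2 and 27.6 ± 10.1 in parental cells and was lower in both, the resistant 2 call being lost without resistant 2 DMSO replicate 3 (adjusted p = 0.0657) or parental DMSO replicate 1 (0.0787).

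The FACIT group held the widest difference of the family. COL12A1, the chain of type XII collagen on the surface of type I fibrils, had 654, 737 and 648 normalized counts in resistant 1, 167309, 200159 and 208827 in resistant 2 and 266, 243 and 252 in parental libraries. Resistant 2 stood 757-fold above parental cells (log2 fold change 9.55 ± 0.11, adjusted p = 1.09e-12) and resistant 1 2.68-fold above them (log2 fold change 1.42 ± 0.11, adjusted p = 9.43e-07). COL14A1, which encodes the related type XIV collagen, had 19.1, 12.7 and 15.5 in resistant 1, 1586, 2329 and 2383 in resistant 2 and 51.2, 50.8 and 59.5 in parental libraries. It was 39.002-fold higher in resistant 2 (log2 fold change 5.24 ± 0.22, adjusted p = 7.4e-09) and 3.42-fold lower in resistant 1 (log2 fold change -1.72 ± 0.22, adjusted p = 5.61e-05). The fibroblast marker periostin (POSTN) was high in the same libraries, at 3019 ± 751 in resistant 2 against 4.07 ± 1.25 in parental cells. Of 7 fibroblast markers, 3 were higher in resistant 2 and LUM was lower, beside 32.1% and 29.8% of all genes. PDGFRA and THY1 were below the filter, and THY1 had no read in resistant 2. The part of these markers in the results was not tested.

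Both partner genes of cartilage type IX collagen that could be tested were lower in the resistant populations. COL9A3 had 5.21, 3.64 and 9.66 normalized counts in resistant 1, 7.19, 5.33 and 6.51 in resistant 2 and 243, 301 and 165 in parental libraries, with log2 fold changes of -5.09 ± 0.35 and -4.98 ± 0.35 (adjusted p = 4.51e-07 and 3.66e-07). COL9A2 had 8.68, 14.6 and 15.5 in resistant 1, 28.8, 23.5 and 18.5 in resistant 2 and 124, 134 and 83.3 in parental libraries (log2 fold changes -3.06 ± 0.30 and -2.22 ± 0.30). COL22A1 was likewise near its floor in both, at 6.94, 2.73 and 6.76 in resistant 1 and 6.16, 1.07 and 3.26 in resistant 2 against 112, 108 and 119 in parental cells. COL19A1 fell in resistant 1 (3.68 ± 1.06, against 53.7 ± 3.13 in parental cells), and COL21A1 rose in resistant 2 (23.04 ± 7.35, against 4.42 ± 2.29). COL16A1 had 307, 330.2 and 518 in resistant 1, 364, 296 and 535 in resistant 2 and 233, 302 and 199 in parental libraries, and its resistant 2 call (adjusted p = 0.0437) was lost in 7 alternatives, among them the 2 groups alone (0.0666).

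Of 4 transmembrane collagens, 3 were higher in resistant 1 and 3 in resistant 2, beside 29.3% and 32.1% of all genes tested. COL17A1, the hemidesmosomal collagen of basal epithelial cells, had 75.5, 75.5 and 146 normalized counts in resistant 1, 64.7, 31.98 and 90.1 in resistant 2 and 3.94, 0.958 and 2.16 in parental libraries, 7 parental reads in all. Its log2 fold change was 4.93 ± 0.46 in resistant 1 and 4.22 ± 0.46 in resistant 2 (adjusted p = 4.5e-06 and 1.08e-05), on a scale with a pseudocount of 1. COL13A1, found at cell-matrix contacts and neuromuscular junctions, had 677, 600.4 and 755 in resistant 1, 2360.2, 1114 and 1140.1 in resistant 2 and 93.5, 159 and 120.1 in parental libraries. All resistant libraries lay above the parental ones, and resistant 2 replicate 1 stood above the other two. COL23A1 was higher in resistant 1 (97.2, 82.8 and 91.7, against 5.14, 11.7 and 15.2 in resistant 2 and 12.8, 18.2 and 9.74 in parental cells). COL25A1 was lower in resistant 1 (2.69 ± 1.5) and higher in resistant 2 (106 ± 9.2) than in parental cells (21.97 ± 5.8).

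Resistant 1 was also set against resistant 2 directly. With DMSO, 26 of 36 collagen genes were called, 5 higher and 21 lower in resistant 1, beside 53.4% of all genes (27.4% and 26.0%). No fibrillar gene was higher in resistant 1 and 8 were lower. The largest differences were COL12A1 (log2 fold change -8.14 ± 0.11, adjusted p = 4.67e-12), COL5A1 (log2 fold change -7.88 ± 0.20, adjusted p = 3.66e-10), COL14A1 (log2 fold change -6.96 ± 0.22, adjusted p = 1.51e-09) and COL1A1 (log2 fold change -6.27 ± 0.27, adjusted p = 1.1e-08). The 5 genes higher in resistant 1 were COL6A1, COL23A1, COL4A3, COL6A3 and COL4A6. Same-numbered libraries of these populations deviated together, and with the replicate number as a block 2 calls were lost, COL9A2 (adjusted p = 0.0525) and COL4A6 (0.083).

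**Figure D3:**
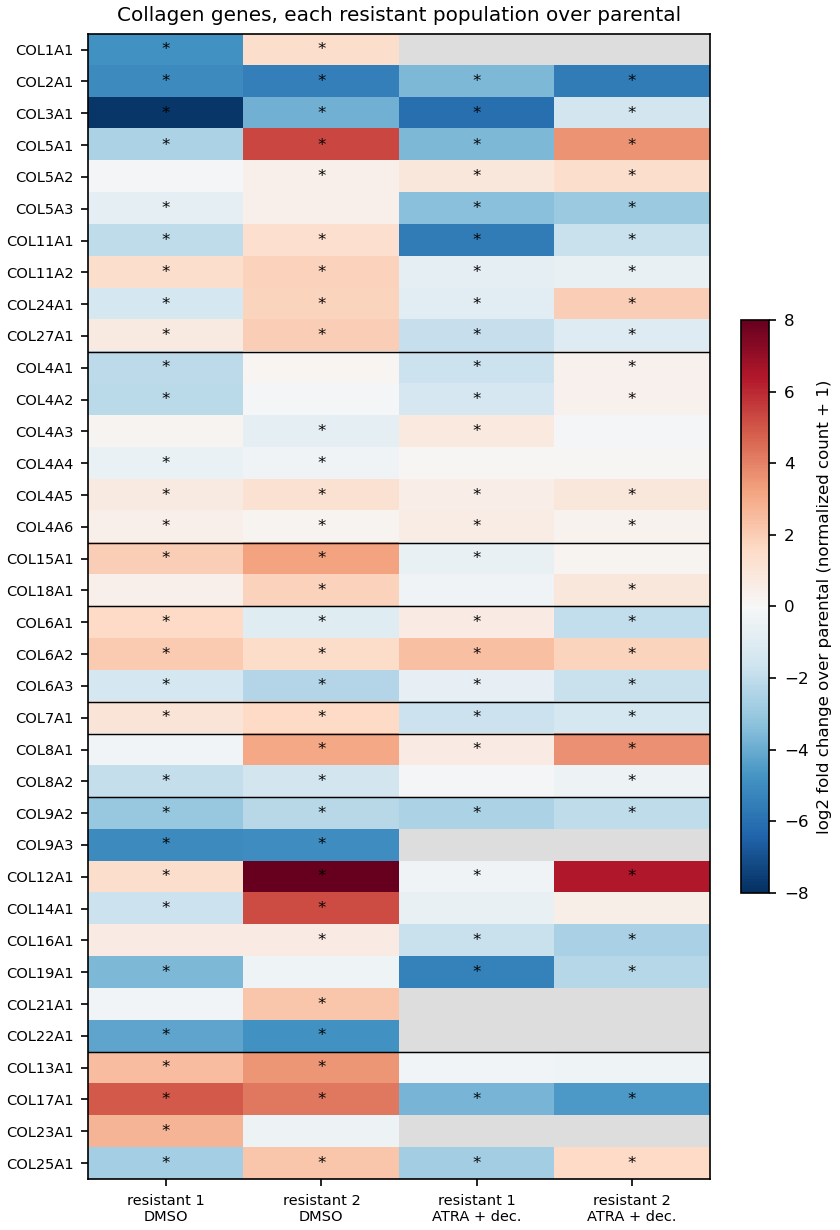
Log2 fold change of 36 collagen genes in each resistant population over parental cells, with DMSO (left columns) and with ATRA and decitabine (right columns). Colours are capped at 8 (COL12A1 reached 9.55), stars mark adjusted p under 0.05, grey cells were not resolved, and lines separate the types. COL17A1 and COL7A1 turn from higher to lower between the DMSO and the treated columns in both populations.

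The response to ATRA and decitabine asks what the treatment did within each population, on CPM over all 18 libraries. In parental cells, 26 of 31 tested collagen genes were called, 20 higher and 6 lower with the drugs, beside 64.3% of all genes (32.0% higher and 32.4% lower). In resistant 1, 12 of 31 were called, 9 higher and 3 lower, beside 27.1% of all genes (14.6% and 12.5%), and in resistant 2, 12 of 31, 6 higher and 6 lower, beside 18.8% (10.5% and 8.28%). The median log2 change of the collagen genes was 0.22 in resistant 1, 0.03 in resistant 2 and 0.96 in parental cells, while the median over all genes was within 0.01 of 0 in each. All changes are on the scale of log2(CPM + 1), on which a pseudocount of 1 CPM understates the folds of low genes, so ratios of mean CPM are given beside them.

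All 5 tested FACIT genes rose in treated parental cells, beside 32.0% of all genes. COL9A2 had 38.2, 36.02 and 38.6 CPM in treated parental libraries and 1.1, 1.2 and 0.745 with DMSO, a ratio of 37.1 (log2 change 4.27 ± 0.17, adjusted p = 1.61e-12). COL14A1 had 12.02, 12.7 and 13.6 treated and 0.453, 0.454 and 0.532 with DMSO, a ratio of 26.6 (log2 change 3.22 ± 0.21). COL12A1 and COL16A1 rose 5.36-fold and 7.08-fold, to 12.1 ± 0.85 and 15.4 ± 1.35 CPM. Treated and DMSO libraries of parental cells did not overlap for any of these genes. COL19A1 rose 2.75-fold to 1.32 ± 0.209 CPM, and COL21A1 and COL22A1 are described below with the genes resolved in part of the libraries.

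Of 9 tested fibrillar genes, 6 rose and 2 fell in treated parental cells, beside 32.0% and 32.4% of all genes. The pair that fell, COL5A2 and COL3A1, held the highest fibrillar levels there with DMSO. COL5A2 had 1223, 1105 and 1214 CPM treated and 3473, 3165 and 3455 with DMSO, a ratio of 0.351 (-1.51 ± 0.10 on the log2 scale, adjusted p = 1.16e-09). COL3A1 had 11.3, 15.4 and 16.4 treated and 46.5, 63.04 and 63.7 with DMSO, a ratio of 0.248 (-1.94 ± 0.16, adjusted p = 2.25e-08). Most of the others rose. COL27A1 had 81.7, 70.5 and 67.7 treated and 8.01, 8.44 and 5.51 with DMSO (3.17 ± 0.19, adjusted p = 3.1e-10). COL5A3 rose 11.3-fold, COL11A1 21.3-fold, COL11A2 7.13-fold and COL5A1 2.59-fold. The call of COL2A1 (0.44 ± 0.17, adjusted p = 0.0335) was lost in 6 alternatives, among them edgeR's quasi-likelihood test (adjusted p = 0.187). COL24A1 gave 0.15 ± 0.13 and did not pass (adjusted p = 0.362).

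The basement membrane and network genes split by type, where 32.0% of all genes rose and 32.4% fell in treated parental cells. Of 6 type IV genes, 3 fell and none rose, COL4A6 to 294 ± 12.7 CPM against 465 ± 32.6 with DMSO (-0.66 ± 0.07, adjusted p = 3.64e-07), COL4A1 by a log2 change of -0.36 ± 0.09 and COL4A2 by -0.43 ± 0.16. The COL4A2 call was lost in 6 alternatives, the highest p coming without parental DMSO replicate 2 (adjusted p = 0.142). Both multiplexins rose. COL15A1 had 35.1, 26.97 and 26.1 CPM treated and 2.07, 2.01 and 1.71 with DMSO (3.37 ± 0.10, adjusted p = 8.1e-14), and COL18A1 averaged 14.8 ± 5.13 and 7.14 ± 2.86, a call lost without parental ATRA plus decitabine replicate 1 (adjusted p = 0.0834) or parental DMSO replicate 3 (0.095). COL7A1 had 76.7, 58.6 and 58.97 treated and 8.54, 10.9 and 5.17 with DMSO, a 7.9-fold rise (2.88 ± 0.23, adjusted p = 1.27e-08).

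In type VI collagen, COL6A3 gained most in parental cells, with 28.4, 29.3 and 26.8 CPM treated and 1.996, 2.14 and 2.09 with DMSO, a ratio of 13.6 (3.24 ± 0.20, adjusted p = 4.83e-10). COL6A1 rose 1.75-fold, a call lost without parental DMSO replicate 3 (adjusted p = 0.0703), and COL6A2 gave -0.16 ± 0.30 and did not pass. The ratio of COL6A1 to COL6A2 per exon length was 28.4, 35.95 and 38.9 in treated and 17.5, 14.3 and 18.2 in DMSO parental libraries, without overlap. The type VIII chains parted, COL8A1 falling to 168 ± 14.9 CPM against 321 ± 25.96 with DMSO, and COL8A2 rising to 1.42 ± 0.208 against 0.245 ± 0.0886. Of the transmembrane genes, COL17A1 had 17.96, 9.22 and 10.7 treated and 0.0349, 0.00857 and 0.0193 with DMSO, a ratio of 604 that rests on 7 DMSO reads (3.69 ± 0.18, adjusted p = 3.61e-11). COL13A1 rose 6.15-fold to 6.82 ± 0.305 CPM, and COL25A1 1.81-fold to 0.354 ± 0.0513 CPM.

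**Figure D4:**
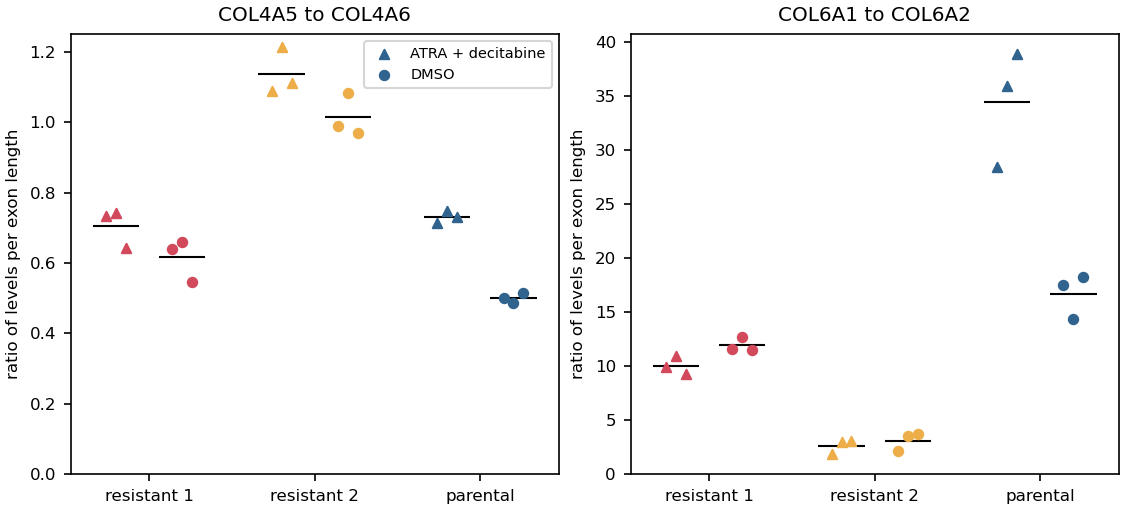
Ratio of partner chains per exon length, COL4A5 to COL4A6 (left) and COL6A1 to COL6A2 (right), 1 point per library with the mean as a bar, treated (triangles) left of DMSO (circles). In parental cells the COL6A1 to COL6A2 ratio averages 34.4 treated and 16.7 with DMSO, and resistant 2 lies at 3.68 or less in all 6 libraries.

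The ratio of COL4A5 to COL4A6 was also higher with treatment, at 0.715, 0.747 and 0.731 in treated parental libraries against 0.4998, 0.486 and 0.515 with DMSO. In resistant 2 it was 1.09, 1.21 and 1.11 treated and 0.989, 1.08 and 0.97 with DMSO, also without overlap, as COL4A6 fell by a log2 change of 0.68 and COL4A5 by 0.52. In resistant 1 the treated ratios of 0.733, 0.743 and 0.643 overlapped the 0.64, 0.661 and 0.547 of DMSO libraries. COL4A1 to COL4A2 stayed between 0.451 and 0.794 in all 18 libraries.

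Decitabine traps enzymes that methylate CG dinucleotides, and this methylation was not measured here. Its part in the rises was not tested. To show what lies upstream of genes that rose, the 250 bases before the RefSeq start (GRCh38.p14) of 4 of the genes with a log2 change above 3 in parental cells are printed 5′ to 3′ on the strand of the gene, with CG in capitals. They were chosen to span few and many CG dinucleotides, with their responses known.
COL17A1, chr10:104085881-104086130, minus strand: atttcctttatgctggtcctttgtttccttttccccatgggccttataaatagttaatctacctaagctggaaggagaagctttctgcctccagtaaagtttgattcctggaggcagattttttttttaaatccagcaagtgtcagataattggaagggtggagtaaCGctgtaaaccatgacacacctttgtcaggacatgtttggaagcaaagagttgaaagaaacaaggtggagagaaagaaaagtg
COL6A3, chr2:237414165-237414414, minus strand: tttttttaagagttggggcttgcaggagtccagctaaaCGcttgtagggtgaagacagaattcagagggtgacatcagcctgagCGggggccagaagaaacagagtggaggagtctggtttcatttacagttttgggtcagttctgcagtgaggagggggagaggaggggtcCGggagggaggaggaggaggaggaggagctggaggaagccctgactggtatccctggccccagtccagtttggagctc
COL9A2, chr1:40317287-40317536, minus strand: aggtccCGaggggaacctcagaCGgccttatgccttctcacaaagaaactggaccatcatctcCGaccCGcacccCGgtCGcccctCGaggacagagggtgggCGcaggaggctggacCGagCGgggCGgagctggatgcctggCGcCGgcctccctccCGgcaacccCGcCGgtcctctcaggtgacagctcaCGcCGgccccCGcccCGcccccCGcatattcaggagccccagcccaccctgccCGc
COL15A1, chr9:98943657-98943906, plus strand: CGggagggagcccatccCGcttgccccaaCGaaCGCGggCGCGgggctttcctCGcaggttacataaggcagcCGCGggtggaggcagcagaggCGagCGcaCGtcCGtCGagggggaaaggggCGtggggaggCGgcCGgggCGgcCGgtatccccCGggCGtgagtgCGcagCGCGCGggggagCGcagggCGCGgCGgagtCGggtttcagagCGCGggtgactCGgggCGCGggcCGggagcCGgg
COL17A1 holds 1 CG, COL6A3 3, COL9A2 22 and COL15A1 38 in this window. Sequences were found for 29 of the 39 genes. In a fit of the parental libraries alone, described below, the 19 that rose had a median of 16 CG (1 to 38). The other 8 tested in that fit, which fell or were not called, had a median of 18.5 (7 to 40), beside 11 over all 27305 promoters. The hexamer GGGCGG, searched on both strands and containing a CG, was in 58.6% of the collagen promoters and 42.3% of all. CCAAT was in 27.6% and 33%, and TATAAA in 13.8% and 11.1%, both searched on both strands. COL1A1, COL1A2, COL2A1, COL3A1, COL5A2, COL6A1, COL8A1, COL9A3, COL14A1 and COL22A1 had no entry.

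By ratio of mean CPM, the largest rises were those of COL6A3, COL9A2 and COL8A2 in both resistant populations and of COL14A1 in resistant 1. All started from DMSO levels below 1 CPM, and the ranking differs on the log2(CPM + 1) scale. COL6A3 had 16.7, 25.3 and 11.2 CPM treated against 0.588, 0.871 and 0.866 with DMSO in resistant 1, and 6.23, 8.93 and 7.3 against 0.237, 0.564 and 0.434 in resistant 2, ratios of 22.9 and 18.2. COL9A2 had 4.49, 7.73 and 6.94 treated against 0.0764, 0.127 and 0.136 with DMSO in resistant 1, and 8.87, 6.49 and 10.99 against 0.246, 0.200 and 0.16 in resistant 2, ratios of 56.5 and 43.5. COL8A2 rose 20.5-fold in resistant 1 and 12.02-fold in resistant 2, to 1.27 ± 0.031 and 0.976 ± 0.154 CPM. For each of these genes the treated libraries lay above the DMSO libraries in both populations (highest adjusted p = 2.26e-07). COL14A1 rose in resistant 1, to 9.08, 10.6 and 5.65 CPM against 0.168, 0.111 and 0.136 with DMSO (3.02 ± 0.21, adjusted p = 2.33e-08). In resistant 2, where COL14A1 was already high, it had 11.7, 19.7 and 19.5 treated and 13.6, 19.9 and 20.7 with DMSO, with overlap (-0.10 ± 0.21, adjusted p = 0.857). Treated libraries of the 3 populations thus ended at 5.65 to 19.7 CPM of COL14A1.

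COL2A1 rose in resistant 1 as well, to 0.873, 1.63 and 0.874 CPM against 0.283, 0.325 and 0.229 with DMSO (0.71 ± 0.17, adjusted p = 0.00494). Its response there was not called different from the parental one (difference 0.28 ± 0.24, adjusted p = 0.38), and in resistant 2 it gave 0.05 ± 0.17. A further group, COL17A1, COL7A1, COL16A1, COL15A1 and COL12A1, had smaller log2 changes in both resistant populations than in parental cells. COL17A1 had 0.82, 0.763 and 1.08 CPM treated and 0.665, 0.657 and 1.28 with DMSO in resistant 1, and 0.455, 0.335 and 0.598 and 0.553, 0.273 and 0.783 in resistant 2, with overlap in both. COL7A1 gave log2 changes of 0.19 ± 0.23 in resistant 1 and -0.02 ± 0.23 in resistant 2, and COL16A1 of 0.28 ± 0.21 and -0.35 ± 0.21, none past the test. COL15A1 rose in both, 2.39-fold in resistant 1 and 1.84-fold in resistant 2 (adjusted p = 4.9e-07 and 2.53e-05). COL12A1 rose 1.61-fold in resistant 1 and fell in resistant 2, to 961, 971 and 939 CPM against 1430.4, 1708 and 1814 with DMSO (-0.78 ± 0.10, adjusted p = 2.78e-05). COL13A1 fell in resistant 2, with 11.2, 2.87 and 3.54 treated and 20.2, 9.51 and 9.9 with DMSO. That call (adjusted p = 0.0175) was lost without resistant 2 ATRA plus decitabine replicate 2 (0.0936) or 3 (0.0891), without resistant 2 DMSO replicate 1 (0.0864) and in the resistant 2 libraries alone (0.168). COL5A2 fell in both, to 0.717 of its DMSO level in resistant 1 and 0.666 in resistant 2, as did COL4A5 and COL4A6.

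Same-numbered treated and DMSO libraries deviated together within resistant 1 and within resistant 2, but not in all pairs within parental cells. Differently numbered ones were not examined. With the replicate number as a block within each population, 17 collagen genes were called in resistant 1 in place of 12, and 19 in resistant 2 in place of 12, 10 higher and 9 lower. Over all genes, this block called 43.8% in resistant 1 (21.2% higher and 22.6% lower) and 33.7% in resistant 2 (17.0% and 16.7%). The genes gained in resistant 1 were COL4A3, COL11A2, COL5A3, COL24A1 and COL4A2, at log2 changes of 0.21 to 0.45, all upwards. Those gained in resistant 2 were COL4A3 (0.42), COL24A1 (0.31), COL27A1 (0.28) and COL3A1 (0.23) upwards, and COL5A1 (-0.44), COL16A1 (-0.35) and COL4A1 (-0.20) downwards. This fit was chosen after the data had been seen.

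**Figure D5:**
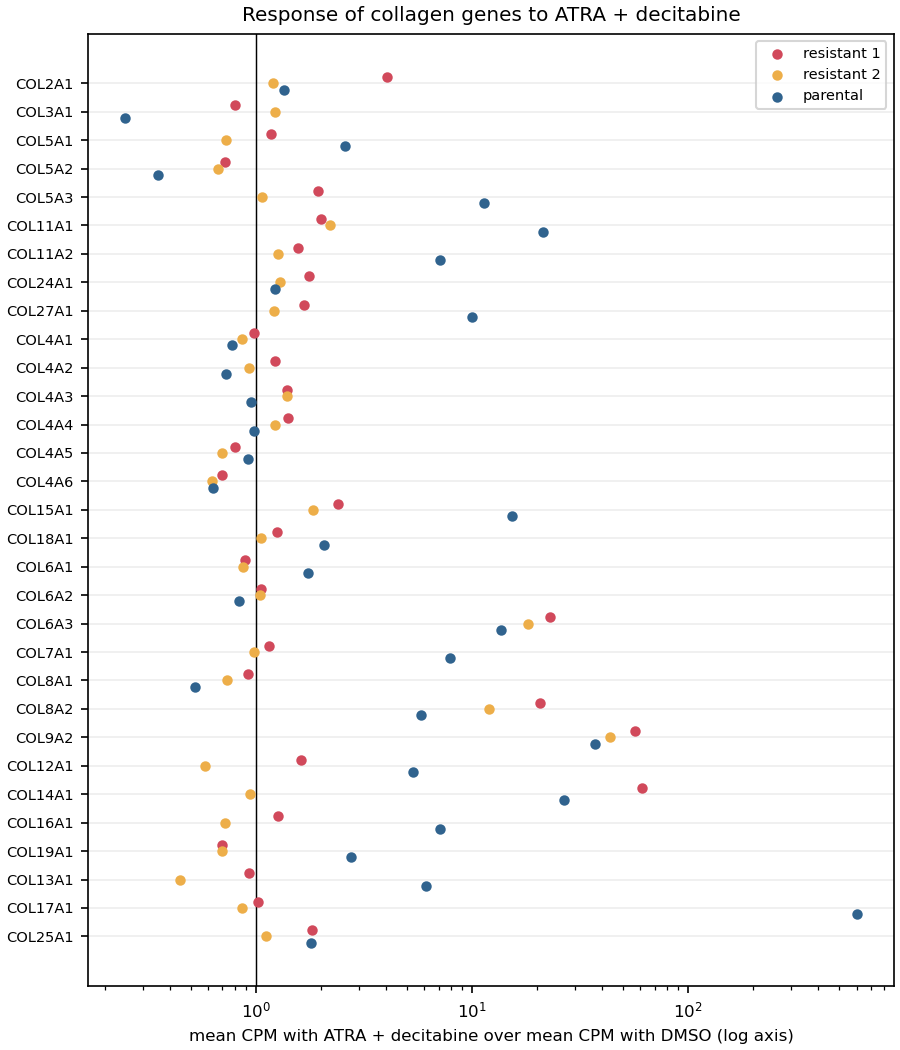
Mean CPM with ATRA and decitabine over mean CPM with DMSO (log axis) for 31 collagen genes, 1 point per population, ordered by type, with resistant 1 above resistant 2 above parental within each gene. The line marks a ratio of 1; COL17A1 stands at 604 in parental cells and at 1.02 and 0.863 in resistant 1 and resistant 2, whereas COL6A3, COL8A2 and COL9A2 stand right of the line in all 3.

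The responses were then set against each other by interaction terms. In resistant 1 minus parental, 19 of 31 collagen genes were called, 5 with a higher and 14 with a lower response in resistant 1, beside 42.7% of all genes (20.5% and 22.2%). In resistant 2 minus parental, 20 were called, 4 higher and 16 lower, beside 48.4% (23.5% and 24.9%). Both share the parental libraries. COL17A1 differed most, by -3.66 ± 0.26 in resistant 1 and -3.75 ± 0.26 in resistant 2 (adjusted p = 1.35e-08 and 8.12e-09). COL7A1 differed by -2.69 ± 0.32 and -2.90 ± 0.32, COL27A1 by -2.48 ± 0.27 and -2.90 ± 0.27, COL15A1 by -2.21 ± 0.15 and -2.52 ± 0.15, and COL16A1 by -2.09 ± 0.29 and -2.73 ± 0.29. In the opposite direction, COL3A1 fell in parental cells and gave 0.23 ± 0.16 in resistant 2, a difference of 2.17 ± 0.23 (adjusted p = 1e-06). COL9A2, whose CPM ratio was 56.5 in resistant 1, 43.5 in resistant 2 and 37.1 in parental cells, was called lower on this scale (-1.56 ± 0.23 and -1.27 ± 0.23). With edgeR's quasi-likelihood test, which adds no such pseudocount, its differences were 0.61 and 0.22 and did not pass (adjusted p = 0.231 and 0.662).

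Between the resistant populations, 3 of 31 responses differed, 2 higher and 1 lower in resistant 1, beside 4.36% of all genes (2.90% and 1.47%). These were COL14A1 (3.11 ± 0.29, adjusted p = 9.12e-06), COL12A1 (1.38 ± 0.14, adjusted p = 1.46e-05) and COL11A1 (-0.30 ± 0.07, adjusted p = 0.0219). The COL11A1 call was lost in 6 alternatives, edgeR's test among them (adjusted p = 0.99). With the replicate number as a block within each population, 11 were called, 9 higher and 2 lower in resistant 1. Over all genes, this block called 13.7% (7.31% and 6.39%). The further ones were COL13A1 (1.08), COL6A3 (0.75), COL2A1 (0.66), COL16A1 (0.64), COL5A1 (0.55), COL27A1 (0.42), COL8A1 (0.33) and COL3A1 (-0.29).

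The populations were last compared with both drugs present. Of 31 tested collagen genes, 26 were called in resistant 1 against parental cells, 7 higher and 19 lower, beside 66.6% of all genes (35.6% higher and 31.0% lower). In resistant 2, 26 were called as well, 12 higher and 14 lower, beside 71.8% (39% and 32.8%). In resistant 1, 8 of 9 fibrillar genes were lower, in resistant 2 6 of 9. COL17A1 had 119, 109 and 155 normalized counts in resistant 1, 66.5, 50.7 and 88.1 in resistant 2 and 2467, 1247 and 1468 in parental libraries, the reverse of its order with DMSO (log2 fold change -3.70 ± 0.27, adjusted p = 3.19e-07 in resistant 1; log2 fold change -4.61 ± 0.27, adjusted p = 3.62e-08 in resistant 2). COL7A1 averaged 2656 ± 535 in resistant 1, 3400.1 ± 642 in resistant 2 and 8838 ± 1471 in parental cells, likewise turned round (log2 fold change -1.74 ± 0.17, adjusted p = 4.36e-06; log2 fold change -1.38 ± 0.17, adjusted p = 2.13e-05). COL27A1 turned round too, at 2759 ± 310.0 in resistant 1, 5047 ± 1275 in resistant 2 and 10002 ± 1067 in parental cells.

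Some differences of the DMSO libraries persisted with treatment. The restoration of treated values drew in part on the DMSO differences and is not independent of them. COL12A1 had 140182, 146893 and 138234 normalized counts in resistant 2 and 1796, 1599.9 and 1562 in parental libraries (log2 fold change 6.42 ± 0.10, adjusted p = 2.42e-12). COL8A1 had 321606, 290267 and 248158 in resistant 2 and 25243, 20866 and 22503 in parental libraries (log2 fold change 3.64 ± 0.11, adjusted p = 2.59e-10), and COL5A1 had 22608, 19455 and 29591 and 2349, 1654 and 1808 (log2 fold change 3.62 ± 0.17, adjusted p = 7.44e-09). These resistant 2 libraries lay above the parental ones throughout. COL4A1 and COL4A2 remained lower in resistant 1, at 1163 ± 126 and 3024 ± 293 against 3799.5 ± 359.6 and 7728 ± 1058 in parental cells (log2 fold changes -1.71 ± 0.10 and -1.35 ± 0.13). COL3A1 was lower in both, at 27.5, 34.5 and 22.96 in resistant 1 and 899, 647 and 593 in resistant 2 against 1550.0, 2079 and 2235 in parental libraries. COL5A2 remained higher in resistant 2, at 421951 ± 47698 against 161068 ± 10100.4 in parental cells. In resistant 1, where it was not called with DMSO (-0.18 ± 0.09, adjusted p = 0.115), COL5A2 was higher with treatment, at 302023 ± 14869 (log2 fold change 0.91 ± 0.09, adjusted p = 3.33e-06). COL14A1 and COL13A1, far apart with DMSO, missed the threshold against parental cells in both resistant populations. For COL14A1 the log2 fold changes were -0.56 ± 0.24 and 0.49 ± 0.24 (adjusted p = 0.0546 and 0.0825), and 6 of 15 alternatives called it lower in resistant 1 and 2 of 15 called it higher in resistant 2 (lowest adjusted p = 0.0189 and 0.0102). COL13A1 gave -0.23 ± 0.37 and -0.37 ± 0.37 (adjusted p = 0.598 and 0.378) and was called lower in 1 of 15 alternatives in each, in resistant 2 without resistant 2 ATRA plus decitabine replicate 1 (-0.97, adjusted p = 2.69e-05). Resistant 1 against resistant 2 gave 24 calls, 7 higher and 17 lower, beside 57.6% of all genes (28.3% and 29.3%).

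The other 7 genes were not resolved in all treated libraries, but most were in those of at least 1 population. A fit of each such population's 6 libraries, chosen after the data had been seen, gave their response. In parental cells COL1A2 had 28.4, 27.1 and 25.2 CPM treated and 0.0447, 0 and 0.00963 with DMSO, where it had 6 reads in all (log2 change 4.77 ± 0.09, adjusted p = 1.93e-08). COL1A1 had 78.4, 77.97 and 80.7 treated and 8.38, 9.33 and 4.8 with DMSO (log2 change 3.28 ± 0.19, adjusted p = 1.99e-06). The ratio of COL1A1 to COL1A2 per exon length there was 3.35 ± 0.261. In resistant 2, COL1A1 had 41.5, 40.9 and 62.6 treated and 14.8, 14.6 and 24.2 with DMSO (log2 change 1.40 ± 0.23, adjusted p = 0.0104). COL9A3 rose in parental cells to 12.6 ± 1.98 CPM against 2.16 ± 0.674 (log2 change 2.11 ± 0.18, adjusted p = 1.45e-05), and in resistant 2 to 0.334 ± 0.159 against 0.0516 ± 0.00778 (log2 change 0.34 ± 0.08, adjusted p = 0.0363). COL21A1, COL22A1 and COL23A1 rose in parental cells as well, to 1.28 ± 0.054, 2.47 ± 0.0939 and 0.633 ± 0.0947 CPM against 0.0401 ± 0.0204, 1.03 ± 0.0262 and 0.124 ± 0.0422 with DMSO. In resistant 1, COL23A1 fell (log2 change -0.20 ± 0.06, adjusted p = 0.0447) and COL22A1 was not called (0.09 ± 0.04, adjusted p = 0.105). In resistant 2, COL21A1 and COL23A1 were not called (0.007 ± 0.06 and 0.01 ± 0.04, adjusted p = 0.97 and 0.914). In this fit of the parental libraries alone, 30 of 37 collagen genes were called, 25 higher and 5 lower, beside 69.4% of all genes (40.6% and 28.9%). COL2A1 (adjusted p = 0.0734) and COL4A2 (0.072) were not called in it. COL9A1 and COL10A1 had at most 7.06 and 9.71 normalized counts in any treated library that was resolved.

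Genes that modify, process or bind collagens were counted beside the chains. Over all genes with DMSO, 29.3% were higher and 26.6% lower in resistant 1 against parental cells, and 32.1% and 29.8% in resistant 2. Of 19 genes of hydroxylation and folding, 7 were higher and 3 lower in DMSO resistant 1 against parental cells, and 11 higher and 1 lower in resistant 2. The lysyl hydroxylase PLOD2 averaged 23212 ± 2155 normalized counts in resistant 1, 31812 ± 1789.5 in resistant 2 and 7602 ± 1281 in parental cells, and the collagen chaperone FKBP10 104618 ± 8950.3 in resistant 1, 110005 ± 9784 in resistant 2 and 38141 ± 3664 in parental cells. Of 14 genes of procollagen processing and crosslinking, 5 were higher and 2 lower in resistant 1, and 6 higher and 4 lower in resistant 2. The lysyl oxidases, which crosslink collagen, differed in unlike directions. LOX averaged 49.1 ± 5.88 in resistant 1, 2914 ± 257 in resistant 2 and 18.8 ± 3.68 in parental cells, whereas LOXL3 averaged 12614 ± 679.6 in resistant 1, 411 ± 29.3 in resistant 2 and 191 ± 12.5 in parental cells. LOXL2 was high in both, at 31411 ± 4232 in resistant 1 and 56294 ± 7834 in resistant 2 against 1846 ± 243 in parental cells. LOXL1 was higher in resistant 2, at 455 ± 126 in resistant 1 (no call, adjusted p = 0.316), 2298 ± 586 in resistant 2 and 588 ± 187 in parental cells. LOXL4 was lower in both, at 7.3 ± 0.81 in resistant 1 and 2.14 ± 1.12 in resistant 2 against 33.02 ± 6.21 in parental cells.

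Of 8 collagen receptors, 6 were higher and 1 lower in resistant 1, and 7 were higher in resistant 2. The shares over all genes were 29.3% higher and 26.6% lower in resistant 1, and 32.1% and 29.8% in resistant 2. MRC2, an endocytic receptor for collagen fragments, averaged 1899 ± 211 normalized counts in resistant 1, 59652 ± 8614 in resistant 2 and 1336 ± 367 in parental cells. The integrin chain ITGA11, a receptor for fibrillar collagen, averaged 68.95 ± 5.72 in resistant 1, 4489 ± 853 in resistant 2 and 309 ± 24.6 in parental cells, and ITGA1 averaged 19192 ± 1301 in resistant 1, 9396 ± 1045 in resistant 2 and 925 ± 158 in parental cells. Of 8 fibrillogenesis partners, 4 were higher and 2 lower in each population. Fibromodulin (FMOD), a proteoglycan of collagen fibrils, averaged 1496 ± 243 in resistant 1, 5311 ± 649 in resistant 2 and 132 ± 1.08 in parental cells, and lumican (LUM) was lower, at 58.5 ± 5.54 in resistant 1 and 41.1 ± 7.27 in resistant 2 against 1409 ± 231.

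Over all genes, 32.0% rose and 32.4% fell with treatment in parental cells, 14.6% and 12.5% in resistant 1, and 10.5% and 8.28% in resistant 2. With treatment, 9 of 11 tested processing and crosslinking genes rose in parental cells and none fell, 7 rose and 1 fell in resistant 1, and 3 rose and 1 fell in resistant 2. LOXL4 rose in all 3 populations, to 3.4 ± 0.65 CPM in resistant 1, 1.57 ± 0.552 in resistant 2 and 7.49 ± 0.284 in parental cells, against DMSO levels of 0.064 ± 0.00748, 0.0184 ± 0.00976 and 0.294 ± 0.0566 in that order of populations. LOX rose in resistant 1 and parental cells and fell in resistant 2, where it averaged 13.2 ± 0.978 treated and 25.03 ± 2.22 with DMSO (-0.87 ± 0.09, adjusted p = 5.72e-06). Of 19 hydroxylation and folding genes, 4 rose and 9 fell in parental cells. P4HA2, a prolyl hydroxylase subunit, rose to 101 ± 4.28 CPM against 42.4 ± 2.93 with DMSO, and CRTAP, part of the prolyl 3-hydroxylation complex, fell by a log2 change of 1.03. The partner thrombospondin 2 (THBS2) rose to 10.3 ± 1.03 CPM in treated parental cells against 0.0564 ± 0.0107 with DMSO. Among markers, 6 of 7 epithelial, 2 of 3 tested fibroblast and 3 of 3 muscle genes rose in treated parental cells beside these collagens. KRT19 was lower, at 402, 293 and 309 CPM treated and 767, 861 and 633 with DMSO. The untested fibroblast gene THY1 had 2093 reads in treated and 5 in DMSO parental libraries. LUM had 2396 and 4178, FAP had 2 and 1, and DCN was not resolved there. Of the endothelial genes, 1 of 2 tested rose (PECAM1, 268 reads in treated and 3 in DMSO parental libraries), and the untested CDH5 had 1763 and 0 reads and VWF 1261 and 26. No immune gene could be tested, but PTPRC had 302 reads in treated and 1 in DMSO parental libraries, and CD3E 90 and 0. The part of these markers in the results was not tested.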

How the data were processed

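The authors deposited one table per treatment, each of DESeq2-normalized counts scaled on its own, with STAR, featureCounts, FastQC and MultiQC named beside GRCh38 (hg38) in the submitters' processing notes. The deposited DMSO values are a normalized signal, and 100% of them gave whole reads within 0.01 once multiplied by the library's size factor. The treated values were deposited as digit strings without decimal points, each a power of 10 away from its normalized count. The points were restored by a negative binomial model of whole reads. It averaged, at equal weight, a version without and a version with each gene's population differences among DMSO libraries. Of 47509 treated genes resolved with and without these differences, 0 were restored otherwise. This is no check of the restoration, because the average contains the version without them. Genes without a read are also among the 47509 and agree by construction. The model kept 19434 of 25168 genes at the filter (77.2%). On DMSO values with points removed it resolved 76.9% of 21643 genes, 11 of them wrongly. With population differences taken from treated genes already resolved, it resolved 86.8% of 17636 genes, 4 of them wrongly. Spreads were set on the same libraries.

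Populations were compared within a table on log2(normalized count + 1), and responses on log2(CPM + 1) of recovered reads of 18 libraries with TMM scaling, both with limma 3.58.1 (mean-variance trend, R 4.3.3), for genes with at least 10 normalized counts or reads in at least 3 libraries. Calls are Benjamini-Hochberg adjusted p under 0.05 over all genes. On recovered reads, edgeR 4.0.16 called 12184 genes with DMSO in resistant 1 against parental, 13412 in resistant 2 against parental and 11645 in resistant 1 against resistant 2. DESeq2 1.42.0, other scalings, pseudocounts, filters, a stricter posterior, replicate blocks and single libraries left out were alternatives. The limma fits were tested on simulated data.

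Replicates are separate biological samples per the labels. No 2 libraries of a group agreed within sampling noise (lowest chi-square 9.54 per degree of freedom). Same-numbered libraries deviated together between resistant 1 and resistant 2 with DMSO (r = 0.16 to 0.57), where differently numbered ones gave -0.62 to 0.35. Between treatments they did so within resistant 1 (0.43 to 0.90) and resistant 2 (0.78 to 0.88), but not in all pairs within parental cells (-0.31 to 0.51). Correlations between treatments were computed for same-numbered libraries alone, so whether differently numbered ones deviated together is not known.

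Collagen genes averaging at least 100 normalized counts in a group were to be given by library, and up to 4 called genes averaging at least 50 per pathway list and comparison could be named. The members and lists were chosen with earlier results of these data known. Levels per length use GENCODE 29 exon lengths, and sequences are from RefSeq (GRCh38.p14).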

Additional observations from a re-analysis of the deposited data

Results flagged for a closer look

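The response to ATRA and decitabine differed between populations for the genes below (called differences from parental cells of at least 2 on the log2 scale, and all called differences between the resistant populations), each tested by an interaction term over the 18 libraries (limma on log2(CPM + 1), Benjamini-Hochberg over all genes). Groups held 3 libraries, too few to test a single library as an outlier. In resistant 1 minus parental, the difference was -3.66 for COL17A1, -2.69 for COL7A1, -2.48 for COL27A1, -2.21 for COL15A1 and -2.09 for COL16A1 (adjusted p = 1.35e-08, 5.53e-06, 1.5e-06, 5.56e-09 and 2.72e-05). In resistant 2 minus parental it was -3.75 for COL17A1, -3.31 for COL14A1, -3.07 for COL13A1, -2.90 for COL7A1 and -2.90 for COL27A1. It was also -2.79 for COL12A1, -2.73 for COL16A1 and -2.52 for COL15A1, and 2.17 for COL3A1, with adjusted p of at most 4.06e-05 in these 9 genes.

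Between the resistant populations, resistant 1 minus resistant 2 was 3.11 for COL14A1, 1.38 for COL12A1 and -0.30 for COL11A1 (adjusted p = 9.12e-06, 1.46e-05 and 0.0219). edgeR's quasi-likelihood test on recovered reads called 16 of these 17 differences in the same direction. The exception was COL11A1 (adjusted p = 0.99).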

How the results depend on the processing

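The other settings chosen at the start included other scalings, pseudocounts, filters, tests, replicate blocks and single libraries left out. Across them, 5728 values stayed on their side of the threshold, 146 lost a call and 60 gained one. A further 3 reversed direction with a call in either fit. Values called in neither fit count among the 5728 whatever their direction. The reversals came with edgeR on recovered reads: COL9A2 in resistant 1 minus parental at 0.61, COL9A2 in resistant 2 minus parental at 0.22 and COL14A1 in resistant 1 minus parental at 1.19 (adjusted p = 0.231, 0.662 and 0.0307). With a pseudocount of 0.1 CPM in place of 1, both COL9A2 calls were lost (adjusted p = 0.65 and 0.546).

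A stricter posterior left 18 collagen genes, by construction. With treatment, 15 were called in resistant 1 against parental, 15 in resistant 2 against parental and 13 in resistant 1 against resistant 2. The parental response gave 13, resistant 1 minus parental 9, resistant 2 minus parental 8 and resistant 1 minus resistant 2 0. For that 0, limma gave 5 of the 18 an unadjusted p under 0.05 and edgeR on all tested genes called 0 of them. None of the 3 genes called among 31 was among the 18.

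With a replicate block within each population, chosen after seeing the data, the resistant 2 response gave 19 calls and the difference between the resistant responses 11. Under the planned replicate block, COL16A1 and COL4A6 lost their calls in DMSO resistant 2 against parental (adjusted p = 0.0518 and 0.0681), where numbers do not pair.

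Leaving out 1 library at a time, calls with DMSO ranged over 28 to 30 in resistant 1 against parental, 25 to 29 in resistant 2 against parental and 22 to 24 in resistant 1 against resistant 2. With treatment they ranged over 23 to 27, 23 to 26 and 23 to 26 in that order. Responses gave 11 to 13 calls in resistant 1, 10 to 13 in resistant 2 and 23 to 25 in parental cells, and their differences 17 to 20 in resistant 1 minus parental, 17 to 21 in resistant 2 minus parental and 2 to 4 in resistant 1 minus resistant 2.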
